A study of Mus musculus with 15 samples.

Results

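The 9 genes described here are the oocyte transcription factor genes Sohlh1, Sohlh2, Lhx8, Figla, Nobox, Taf4b and Obox5 and the germ cell RNA regulator genes Dazl and Ddx4. They were taken by name, as 9 of the 53700 genes in each deposited count table, and all 9 passed the filter on low counts in every comparison. Sohlh1 passed it only through the groups in which its counts were higher, the Padi6 heterozygotes and the Tle6 knockouts. Its tests are therefore not independent of the filter. The RNA came from germinal vesicle (GV) oocytes of the mouse, which are fully grown and still arrested in the first meiosis, and each library held 15 of them. Padi6 heterozygotes (+/-, called het below, 3 biological replicates) and Padi6 knockouts (-/-, called KO, 3 biological replicates) were on the FVB/N strain background. Tle6 heterozygotes (+/-, 2 biological replicates) and Tle6 knockouts (-/-, 4 biological replicates) were on the C57BL/6J background. For Tle6 het replicates 1 and 2 and Tle6 KO replicate 4 there were 2 technical libraries, A and B, and their counts were added together. The controls of both lines therefore carried 1 mutant allele, no wild-type group was among the samples, and strain background, targeted gene and any batch of the line cannot be told apart when the lines are compared. The age of the females and the structure of the alleles are not stated in the labels.

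SOHLH1 and SOHLH2 are basic helix-loop-helix proteins and LHX8 is a LIM homeodomain protein. They act early in follicle formation, when the primordial oocyte is enclosed by its first somatic cells. FIGLA, another basic helix-loop-helix protein, is known to drive the zona pellucida genes, and NOBOX, a homeodomain protein, to drive oocyte genes such as Gdf9 and Pou5f1. TAF4B is a gonad-enriched subunit of the general transcription factor TFIID, and OBOX5 belongs to an oocyte homeobox family found in clustered genes. DAZL binds mRNAs and regulates their translation in the maturing oocyte. DDX4, the mouse Vasa protein, is an RNA helicase of germ granules.

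The 300 bases around the RefSeq start site (250 before and 50 after, build GRCm38.p6) are shown for Sohlh2, Nobox and Sohlh1. Sohlh2 and Nobox differed between the lines in het and in KO oocytes. For Sohlh1 the KO response was called different between the lines. That call rests on few counts and was lost under many of the alternatives given below. Basic helix-loop-helix proteins bind E-boxes, so capitals mark CACGTG and CAGGTG (or its reverse complement CACCTG), both of which are also matches to the general E-box CANNTG, and the homeobox core letters TAATTA and TAATTG (or CAATTA).
Sohlh1, chr2:25847199-25847498, minus strand: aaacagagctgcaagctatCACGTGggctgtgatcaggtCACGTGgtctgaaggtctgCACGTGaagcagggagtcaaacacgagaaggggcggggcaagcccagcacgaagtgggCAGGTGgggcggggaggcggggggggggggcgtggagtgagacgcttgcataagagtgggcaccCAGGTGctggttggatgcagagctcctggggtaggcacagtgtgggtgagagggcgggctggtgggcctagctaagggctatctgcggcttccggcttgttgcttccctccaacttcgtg
Sohlh2, chr3:55181794-55182093, plus strand: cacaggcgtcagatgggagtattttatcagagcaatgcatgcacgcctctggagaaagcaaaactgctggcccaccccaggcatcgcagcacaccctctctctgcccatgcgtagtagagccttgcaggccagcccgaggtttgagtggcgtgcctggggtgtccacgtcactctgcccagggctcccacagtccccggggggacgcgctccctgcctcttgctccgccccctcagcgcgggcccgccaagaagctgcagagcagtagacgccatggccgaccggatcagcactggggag
Nobox, chr6:43309505-43309804, minus strand: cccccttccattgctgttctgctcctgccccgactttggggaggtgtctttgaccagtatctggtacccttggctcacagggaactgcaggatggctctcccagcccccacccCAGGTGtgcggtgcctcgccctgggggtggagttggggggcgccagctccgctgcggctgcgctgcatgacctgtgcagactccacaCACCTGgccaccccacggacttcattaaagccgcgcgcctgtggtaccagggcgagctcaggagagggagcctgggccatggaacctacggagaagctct

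The Sohlh1 window held 3 copies of CACGTG and 2 of CAGGTG, and 7.15% and 20.2% of 32851 RefSeq promoter windows of this length held at least 1 copy of each. The Nobox window held 2 copies of CAGGTG and none of the other E-box. The Sohlh2 window held neither, with 1 match to CANNTG, a motif present in 72.3% of all windows. Of the 8 genes with a window in the RefSeq table, all but Taf4b, the Figla window held 3 copies of CAGGTG and the Ddx4 window 1 CACGTG. Neither homeobox core was found in any of the 8 windows, while TAATTA was in 5.29% and TAATTG in 8.0% of all windows. These are letter matches in the reference sequence, and the FVB/N sequence was not read. The windows of Figla, Nobox, Sohlh1, Sohlh2, Dazl and Ddx4 were GC-rich, at 63.3 to 72.0%, and those of Lhx8 and Obox5 had 47.0% and 41.0%, beside a median of 52.7%.

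Each library held between 30100177 and 74947533 counts in genes. Padi6 fell from 1617 to 1747 counts-per-million (CPM) in the Padi6 het replicates to 18.22 to 25.08 in the KO replicates, and Tle6 from 424.7 and 457.3 to between 61.11 and 98.85 CPM in the Tle6 line, as the labels say. The 11 oocyte markers were present in every group, with summed levels of 19200 to 21900 CPM in the Padi6 line and 16220 to 17900 CPM in the Tle6 line, ranges that do not overlap. Summed levels of 21 granulosa and cumulus markers were 233.3 to 273.5 CPM in the Padi6 line and 259.8 to 378.9 CPM in the Tle6 line, with Amh, Tnfaip6 and Ptx3 at 0 in Tle6 het. Theca and stroma markers (9 genes) summed to at most 6.091 CPM, and blood and immune markers (9 genes) to at most 2.332 CPM. The part of other cells, or of the difference in oocyte markers, in the values of the 9 genes was not tested. One pair of technical libraries stood apart. Across 13472 genes the median absolute log2 ratio of library A to library B was 0.69 in Tle6 het replicate 2 (Pearson r across genes 0.922), against 0.09 in Tle6 het replicate 1 and in Tle6 KO replicate 4 (r 0.997 in both). Many results that rest on this replicate are given with and without its library B. That choice of library does not say which of the pair is nearer to the oocytes. CPM are shares of a library's gene counts (TMM-scaled), so less RNA per oocyte and fewer oocytes cannot be told apart.

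Among the 9 genes, Obox5 had the highest level per length of exon in all 4 groups and Sohlh1 the lowest. In Padi6 het oocytes Obox5 stood at 610.9 CPM per kilobase of exon, rank 46 of 18535 protein-coding genes with counts. Dazl followed at 219.0 CPM per kilobase (rank 165), Lhx8 at 161.8 (rank 248) and Nobox at 109.7 (rank 400). A gap separated these from Figla, at 22.91 CPM per kilobase (rank 2087). Taf4b (7.693), Ddx4 (5.604) and Sohlh2 (2.134 CPM per kilobase) were lower again. Sohlh1, at 0.2516 CPM per kilobase (rank 11503), was close to the limit of detection. In Tle6 het oocytes the first levels were 835.1 for Obox5, 258.3 for Dazl, 247.2 for Lhx8 and 53.32 CPM per kilobase for Nobox. Neighbours whose replicates overlapped per length included Dazl and Lhx8 in Tle6 het, and Taf4b and Ddx4 in Padi6 het. No test was made between genes.

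**Figure D1:**
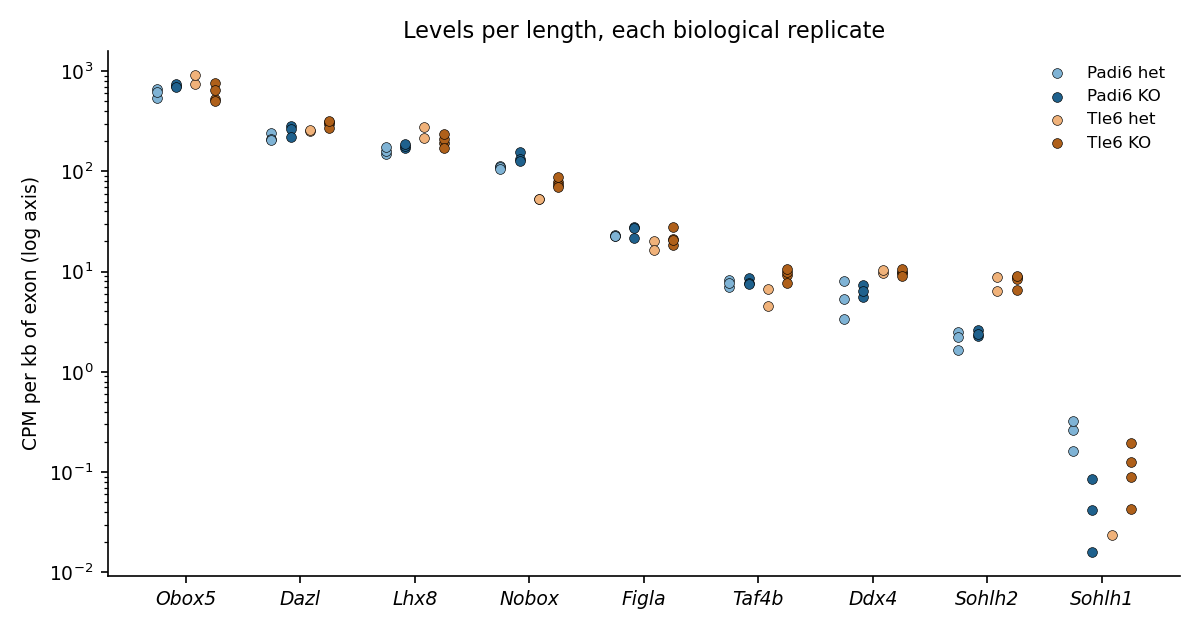
Level of each gene in each biological replicate, in CPM per kilobase of exon on a log axis, with points coloured by group. Obox5, Dazl, Lhx8 and Nobox lie above the other 5 genes in every replicate, and Sohlh1 lies below all others (its Tle6 het replicate 1, at 0, cannot be drawn on this axis).

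The first question was whether these regulators differ in oocytes that lack PADI6, a peptidylarginine deiminase of the cytoplasmic lattices. None of the 9 genes passed an adjusted p of 0.05 in Padi6 KO against Padi6 het (edgeR quasi-likelihood test, Benjamini-Hochberg adjustment over 18228 genes), where 2.41% of all genes did. By unadjusted p 3 of the 9 genes were under 0.05, beside 18.6% of all genes. DESeq2 called 1 of the 9 and limma-voom none, where they called 1322 and 369 of all 18228 genes. The fitted change was positive for 8 of 9 genes, as for 49.2% of all genes, with a median log2 fold change of 0.20 beside -0.01 over all genes. For 3 of the 9 genes, Nobox, Obox5 and Sohlh1, het and KO replicates did not overlap, as for 23.3% of all genes.

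Nobox levels were 228.9, 222.1 and 210.9 CPM in Padi6 het and 315.7, 264.9 and 256.4 CPM in Padi6 KO. Every KO replicate was above every het replicate, and the means were 220.6 ± 9.08 (SD, n = 3) and 279.0 ± 32.09 CPM (SD, n = 3). The log2 fold change was 0.35 ± 0.10 (SE, 95% interval 0.13 to 0.58), with an edgeR adjusted p of 0.0970, which missed the threshold. DESeq2 gave the same gene an adjusted p of 0.0330, and edgeR with a replicate block gave 0.0394, so the call depends on the tool and the design.

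For Sohlh1 the values ran the other way. Its counts were 18, 11 and 26 in the Padi6 het replicates and 4, 7 and 1 in the KO replicates, or 0.3407, 0.2105 and 0.4217 CPM against 0.05382, 0.1098 and 0.02068 CPM. All KO replicates lay below all het replicates, at a depth of a few reads per library. Summed counts were 55 in het and 12 in KO, a ratio of 0.195 after scaling to total counts with an exact 95% counting interval of 0.0952 to 0.369. That interval covers counting error only, since reads without molecular identifiers are not independent molecules. The fitted log2 fold change was -2.31 ± 0.58 (SE), with an edgeR adjusted p of 0.0725, and 0.0295 when no filter on low counts was used. With a spread shared by both lines the edgeR adjusted p was 0.3175.

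Obox5 was at 1434, 1166 and 1315 CPM in Padi6 het and at 1516, 1574 and 1480 CPM in KO. The KO replicates were again all higher, by a log2 fold change of 0.24 ± 0.10 (SE, edgeR adjusted p = 0.223). Dazl, at 919.7, 799.6 and 790.5 CPM in het and 1075, 1002 and 835.9 CPM in KO, overlapped between the groups (log2 fold change 0.23 ± 0.11, SE, adjusted p = 0.293). The changes of Figla (0.17), Lhx8 (0.17), Sohlh2 (0.20), Taf4b (0.07) and Ddx4 (0.21) on the log2 scale had adjusted p-values of 0.397 to 0.803. Their 95% intervals differed in width, from -0.05 to 0.39 for Lhx8 to -0.40 to 0.81 for Ddx4, whose het replicates spread from 10.07 to 24.48 CPM. Ddx4, the helicase gene, thus varied more among Padi6 het replicates than between the group means of 16.89 and 19.27 CPM.

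**Figure D2:**
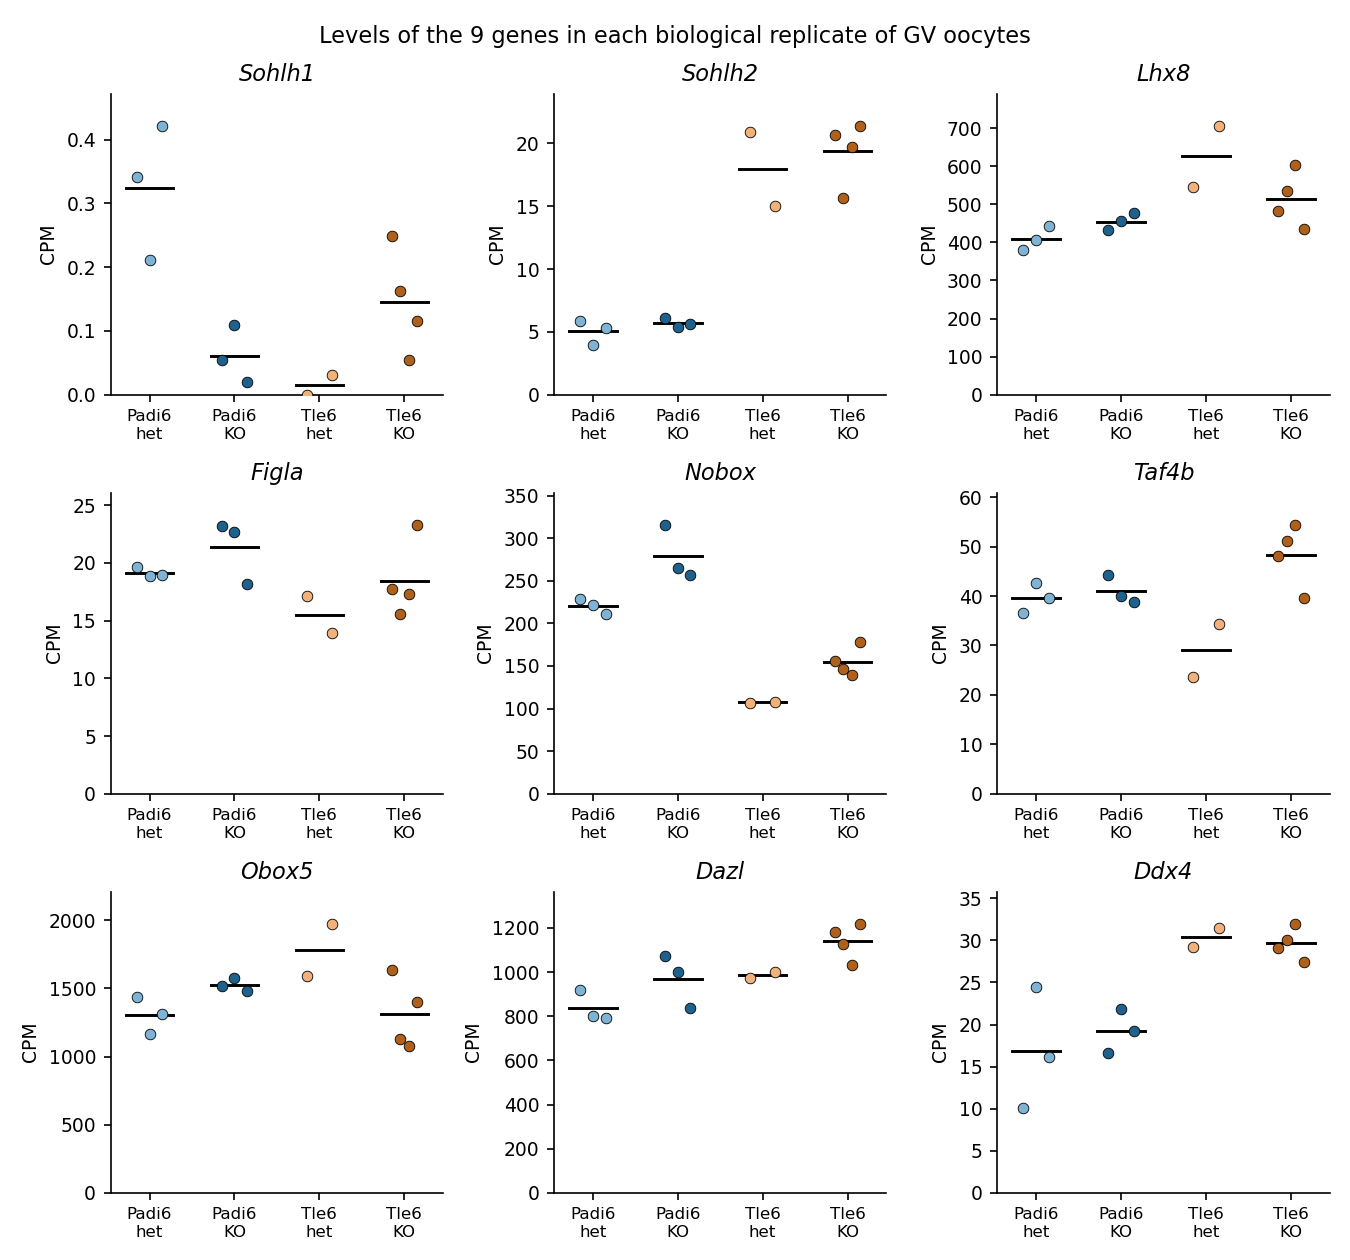
Level of each gene (CPM) in each biological replicate, 1 panel per gene with its own axis from 0, with points for replicates and a line at the group mean. Nobox KO replicates lie above the het replicates of their own line in both lines, Sohlh2 is at 15.02 CPM or more in the Tle6 line and at 6.123 CPM or less in the Padi6 line, and Sohlh1 stays under 0.43 CPM.

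The second comparison asked the same of oocytes without TLE6, which belongs to the subcortical maternal complex. None of the 9 genes passed the test in Tle6 KO against Tle6 het, where 1.62% of 20276 genes did. Again 3 of 9 were under an unadjusted p of 0.05 (19.0% of all genes). Neither DESeq2 nor limma-voom called any of the 9, where they called 1732 and 354 of all 20276 genes. Without library B of Tle6 het replicate 2 again none of the 9 passed, where 0.605% of all genes did. The fitted changes were positive for 7 genes (54.1% of all genes) and negative for 2, Lhx8 and Obox5, with a median log2 fold change of 0.25 beside 0.06 over all genes. Replicates did not overlap for Nobox, Sohlh1, Taf4b and Dazl, 4 of 9, beside 29.3% of all genes. Without library B of het replicate 2 that left Taf4b, 1 of 9 beside 22.6% of all genes.

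Taf4b levels were 23.57 and 34.4 CPM in Tle6 het and 48.11, 51.17, 54.41 and 39.51 CPM in Tle6 KO. All 4 KO replicates were above both het replicates, with means of 48.30 ± 6.400 (SD, n = 4) and 28.99 ± 7.658 CPM (SD, n = 2). The log2 fold change was 0.78 ± 0.24 (SE, 95% interval 0.24 to 1.31) with an edgeR adjusted p of 0.136, so this TFIID subunit gene missed the threshold. Without library B of Tle6 het replicate 2 the change was 0.91 (adjusted p = 0.134), and without library A it was 0.63 (adjusted p = 0.218). When both lines shared 1 estimate of the spread, Taf4b passed with a log2 fold change of 0.73 (adjusted p = 0.0268). That fit called 2061 of 21392 genes. With a replicate block the change of Taf4b was 0.85 and did not pass (edgeR adjusted p = 0.294).

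Nobox was at 107.1 and 107.5 CPM in Tle6 het and at 156.1, 146.8, 139.5 and 177.9 CPM in Tle6 KO. The KO replicates were all higher, as in the Padi6 line, with a log2 fold change of 0.57 ± 0.18 (SE, 95% interval 0.17 to 0.98, edgeR adjusted p = 0.141). The closeness of the het values rests on adding unlike technical libraries, since library A of het replicate 2 gave 146.3 and library B 80.25 CPM. Without library B the log2 fold change of Nobox was 0.30 (adjusted p = 0.611) and without library A it was 0.75 (adjusted p = 0.0993). With a spread shared by both lines Nobox passed, at 0.53 (adjusted p = 0.0315), in a fit that called 2061 of 21392 genes. With a replicate block it was 0.54 and did not pass (95% interval -0.02 to 1.11, edgeR adjusted p = 0.422).

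Sohlh1 had 0 and 3 counts in the Tle6 het replicates and 11, 10, 4 and 9 counts in the KO replicates. The 3 counts all came from library A of het replicate 2, and a count of 0 allows up to 3 counts. The ratio of KO to het after scaling to total counts was 9.03, with a counting interval of 2.84 to 45.9, which covers counting error only. The fitted log2 fold change, 3.04 ± 1.15 (SE), depends on the prior count and had an adjusted p of 0.202. Without library B of het replicate 2 it was 2.21 (adjusted p = 0.503), and without library A, which leaves both het replicates at 0, no fold is given.

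Obox5, at 1594 and 1974 CPM in Tle6 het and 1632, 1129, 1079 and 1401 CPM in KO, had a log2 fold change of -0.40 ± 0.22 (SE, adjusted p = 0.363) and overlapped between groups. This value was -0.03 without library B of het replicate 2. Lhx8, at 545.6 and 706.2 CPM in het and 481.5, 534.7, 602.6 and 434.5 CPM in KO, gave -0.25 ± 0.20 (SE, adjusted p = 0.548) and 0.02 without that library. For Lhx8 the sign thus changed with 1 technical library, and for Obox5 the value without it was near 0. Dazl was at 974.7 and 998.5 CPM in het and 1031 to 1219 CPM in KO, a log2 fold change of 0.25 ± 0.17 (SE, adjusted p = 0.460). Changes of Figla (0.29), Sohlh2 (0.15) and Ddx4 (0.01) on the log2 scale had adjusted p-values of 0.544 to 0.989, and that of Figla became -0.04 without library B.

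**Figure D3:**
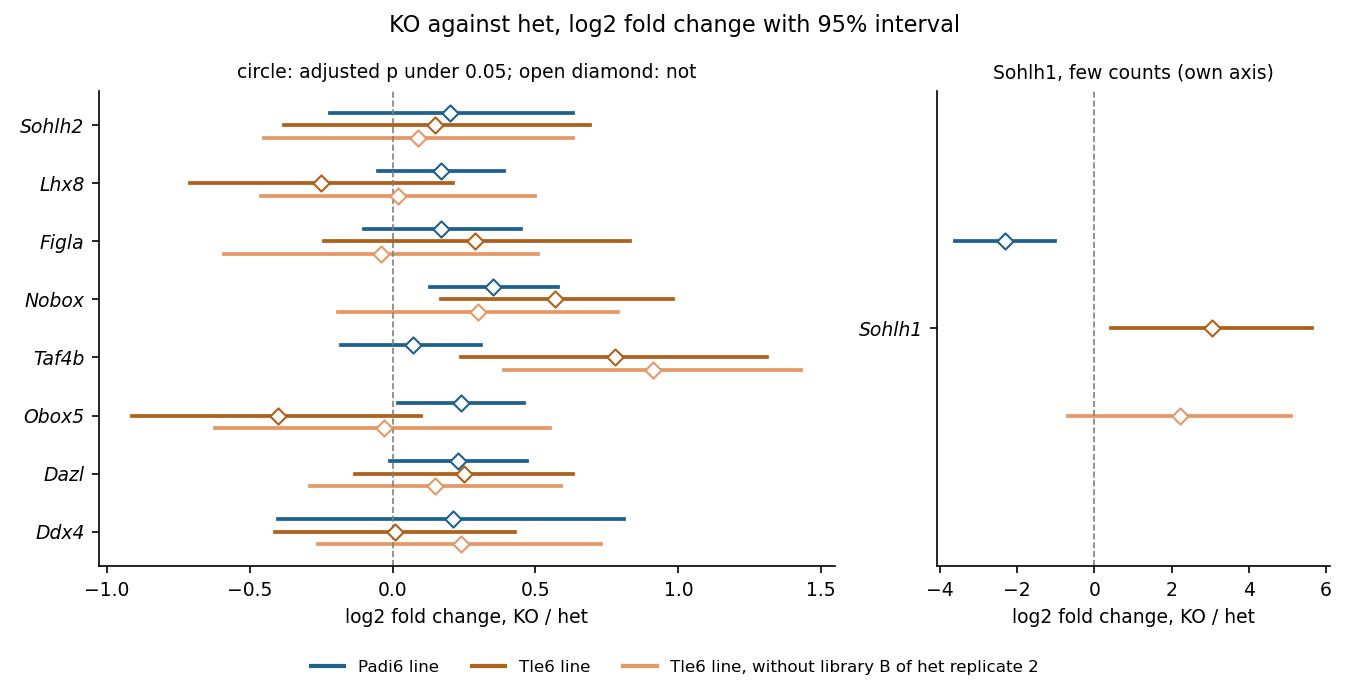
Log2 fold change of KO against het with its 95% interval for each gene (horizontal axis), in the Padi6 line, the Tle6 line and the Tle6 line without library B of het replicate 2; open diamonds mark an adjusted p of 0.05 or more, and Sohlh1 has an axis of its own. All points are open, the Nobox interval excludes 0 in both lines but not without library B, and Sohlh1 is negative in the Padi6 line and positive in the Tle6 line.

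**Figure D4:**
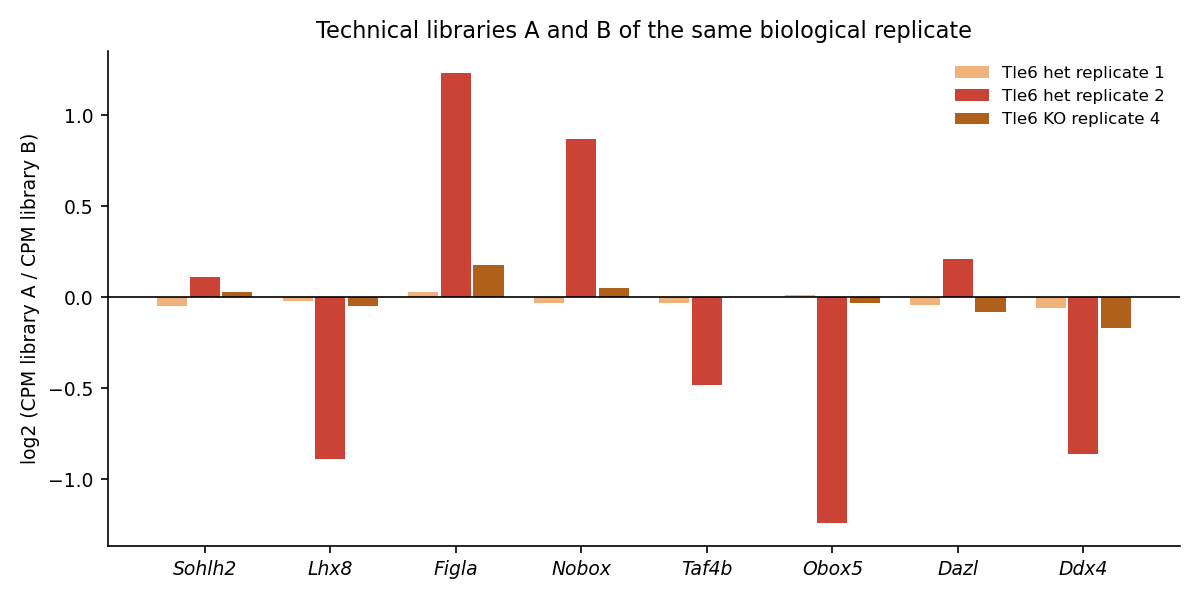
Log2 ratio of CPM in technical library A to library B of the same biological replicate (vertical axis) for 8 genes, with Sohlh1 left out because of its few counts. Bars of Tle6 het replicate 2 run from -1.24 (Obox5) to 1.23 (Figla), while those of the other 2 replicates stay within 0.18 of 0.

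Within Tle6 het replicate 2 the 9 genes did not shift together. Library A was higher than B for Figla (20.94 against 8.899 CPM) and Nobox (146.3 against 80.25 CPM). It was lower for Obox5 (1109 against 2619 CPM), Lhx8 (475.0 against 880.3 CPM), Ddx4 (21.52 against 39.02 CPM) and Taf4b (28.12 against 39.26 CPM). Sohlh2 (15.74 and 14.62 CPM) and Dazl (1088 and 942.5 CPM) were nearest to each other, so of the 8 genes with a ratio these 2 depended least on which library was kept. The plot of technical library ratios shows this beside the other 2 pairs, in which each of the 8 genes agreed within 0.18 on the log2 scale.

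Whether the KO response differed between the lines was tested as the Tle6 line's change minus the Padi6 line's change over all 12 biological replicates. Of the 9 genes only Sohlh1 passed, in the higher direction, as did 1.31% of all 21392 genes tested (4.32% in either direction). Its difference was 5.31 ± 1.32 on the log2 scale (SE, edgeR adjusted p = 0.0381), with lower counts in KO in the Padi6 line and higher counts in KO in the Tle6 line. Sohlh1 passed the filter here only through the groups in which it was higher. Since the Tle6 het group had 3 counts in all, the fitted size depends on the prior count. Without library B of Tle6 het replicate 2 it was 4.54 (adjusted p = 0.142), in a fit that called 1.79% of all genes, and the call was also lost when any 1 of 9 of the 12 replicates was left out, as given under the processing alternatives. DESeq2 gave Sohlh1 no adjusted p in this comparison. Obox5 (-0.69 ± 0.25, SE, adjusted p = 0.128), Taf4b (0.66 ± 0.25, SE, adjusted p = 0.150) and Lhx8 (-0.46 ± 0.22, SE, adjusted p = 0.247) missed the threshold, and Obox5 and Lhx8 shrank to -0.28 and -0.16 without library B. For Nobox the difference was 0.17 ± 0.19 (SE, 95% interval -0.23 to 0.57), an interval that allows a change in the Tle6 line smaller or larger than in the Padi6 line. Total count scaling moved the median of all genes in this comparison by 0.22, and the share of calls that were higher from 30.3% to 51.5%.

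More of the 9 genes passed between the lines than between het and KO, as did more of all genes. In Tle6-line het against Padi6-line het oocytes, 5 of 9 genes passed (Sohlh2, Lhx8 and Ddx4 higher in the Tle6 line, Nobox and Sohlh1 lower), beside 28.5% of all genes (15.9% higher, 12.7% lower). The 2 groups of het replicates did not overlap for any of the 9 genes, a pattern that 54.0% of all genes showed. Without library B of Tle6 het replicate 2, 6 of 9 did not overlap (44.3% of all genes), and Figla, Obox5 and Ddx4 did. With total count scaling 6 of 9 did not overlap (56.5% of all genes), and Obox5, Dazl and Ddx4 did. KO groups of the lines were compared in the same way after the het result was seen. Their samples are other than those of the het groups, but the fit again used all 12 biological replicates. Filter, scaling and estimate of the spread were thus shared, and the 2 comparisons are not independent. There 2 of 9 genes passed, Sohlh2 higher and Nobox lower in the Tle6 line, beside 32.5% of all genes (15.7% higher, 16.8% lower). Between het groups without library B of Tle6 het replicate 2, 3 of 9 passed, Sohlh2, Nobox and Taf4b, beside 17.5% of all genes. All 6 replicates of one line lay apart from all 6 of the other for Sohlh2, Nobox and Ddx4, 3 of 9 genes, beside 20.0% of all genes. Without library B this held for Sohlh2 and Nobox, 2 of 9 genes beside 17.9% of all genes, and not for Ddx4, which also overlapped between the lines with total count scaling.

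Sohlh2 stood at 5.905, 3.943 and 5.288 CPM in Padi6 het and 6.123, 5.41 and 5.667 CPM in Padi6 KO. In the Tle6 line it was at 20.88 and 15.02 CPM in het and 20.69, 15.62, 19.72 and 21.4 CPM in KO. The lowest value in the C57BL/6J line was above the highest in the FVB/N line, whatever the genotype. The log2 fold change between het groups was 1.85 ± 0.22 (SE, 95% interval 1.37 to 2.33, a 3.61-fold difference, edgeR adjusted p = 6.69e-05), and between KO groups 1.75 ± 0.20 (SE, adjusted p = 2.03e-05). It was 1.87 without library B of Tle6 het replicate 2. Its partner gene Sohlh1 was lower in Tle6 het than in Padi6 het, at 3 against 55 summed counts, a ratio of 0.0420 (counting interval 0.0084 to 0.129) with a fitted log2 fold change of -4.15 (adjusted p = 0.0110). That call was lost without library B (adjusted p = 0.0588) and without Tle6 het replicate 1 (log2 fold change -3.30), and between the KO groups the fitted change was 1.17 (adjusted p = 0.277). The fitted direction for Sohlh1 was thus opposite in the het and the KO comparison.

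Nobox, given by replicate above, was lower in the Tle6 line in het and in KO. The highest Tle6-line replicate, KO replicate 4 at 177.9 CPM, was below the lowest Padi6-line replicate, het replicate 3 at 210.9 CPM. The log2 fold change was -1.02 ± 0.15 (SE, 95% interval -1.34 to -0.70, edgeR adjusted p = 0.000282) between het groups and -0.85 ± 0.12 (SE, adjusted p = 0.000122) between KO groups. Without library B it was -0.79 (adjusted p = 0.00752).

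Ddx4 was at 29.2 and 31.5 CPM in Tle6 het and between 27.47 and 31.98 CPM in Tle6 KO. In the Padi6 line it was at 10.07, 24.48 and 16.12 CPM in het and 16.67, 21.88 and 19.26 CPM in KO, below every Tle6-line replicate when both technical libraries were added. The log2 fold change between het groups was 0.87 ± 0.27 (SE, edgeR adjusted p = 0.0268). It was 0.60 (adjusted p = 0.168) without library B and 0.62 (adjusted p = 0.0535) between KO groups, so the direction held and the call did not. It also missed the threshold without Padi6 het replicate 1 (0.61, adjusted p = 0.0676), without Padi6 het replicate 3 (adjusted p = 0.0774), and without Tle6 het replicate 1 or 2 (adjusted p = 0.0585 and 0.118).

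Lhx8 was higher in Tle6 het than in Padi6 het, where it was at 380.9, 406.0 and 441.9 CPM. The log2 fold change of 0.64 ± 0.17 (SE, adjusted p = 0.0118) was 0.33 (adjusted p = 0.191) without library B, 0.43 (adjusted p = 0.146) without the whole of Tle6 het replicate 2, and 0.17 (adjusted p = 0.376) between KO groups. Obox5 was not called (0.47, adjusted p = 0.0748), and its value was 0.06 without library B and -0.22 between KO groups. It passed without library A (0.75, adjusted p = 0.0250) and without Tle6 KO replicate 1, which enters this fit through the shared spread (0.48, adjusted p = 0.0362). Taf4b, at 36.55, 42.7 and 39.59 CPM in Padi6 het, was not called either (-0.42, adjusted p = 0.116), but passed at -0.60 (adjusted p = 0.0320) without library B, and at -0.73 (adjusted p = 0.0340) without Tle6 het replicate 2. Between KO groups Taf4b was at 0.24 (adjusted p = 0.279). Dazl (0.26 ± 0.14, SE, adjusted p = 0.193) and Figla (-0.28 ± 0.20, SE, adjusted p = 0.306) did not pass between het groups.

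Scaling mattered in this comparison. With total counts in place of TMM the median log2 fold change of all genes moved by -0.31, and the share of calls that were higher in the Tle6 line went from 55.5% to 31.4%. Under that scaling Sohlh2, Nobox and Sohlh1 stayed past the threshold, Lhx8 and Ddx4 did not, and Figla (-0.59) and Taf4b (-0.74) passed as lower in the Tle6 line.

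**Figure D5:**
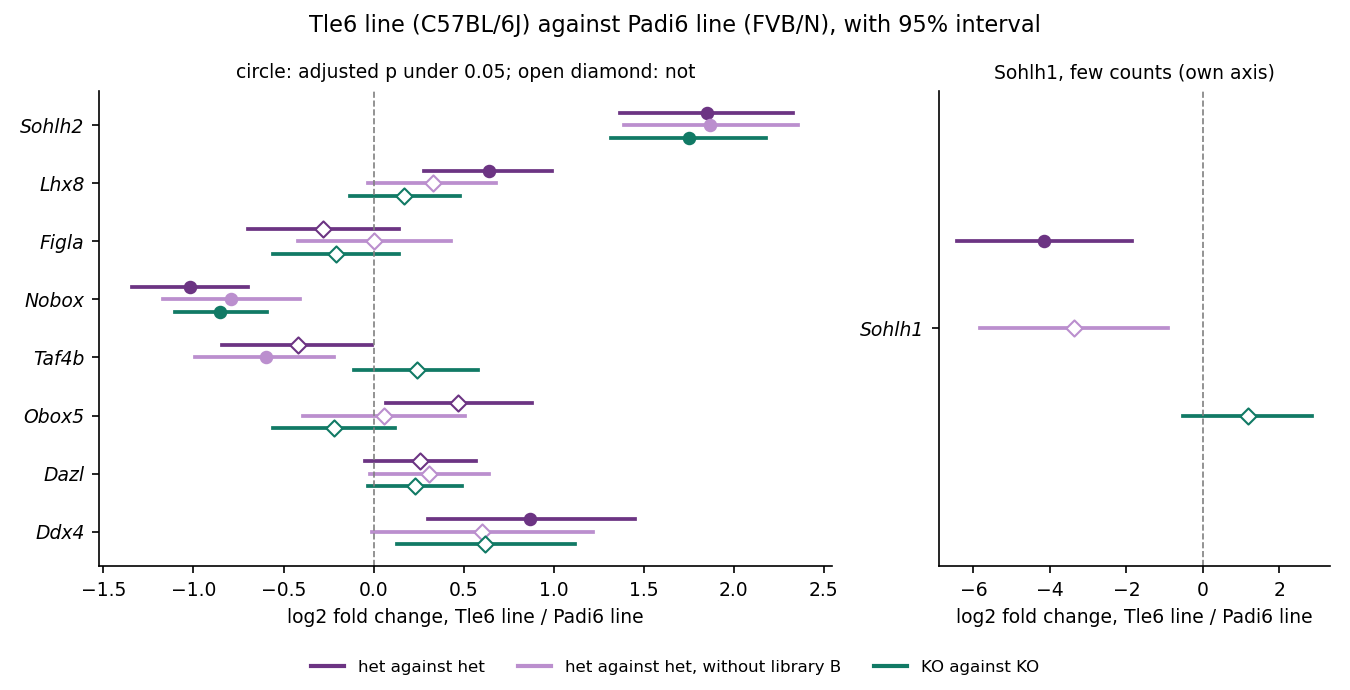
Log2 fold change of the Tle6 line (C57BL/6J) against the Padi6 line (FVB/N) with its 95% interval, between het groups, between het groups without library B of Tle6 het replicate 2, and between KO groups; filled circles passed an adjusted p of 0.05, and Sohlh1 has an axis of its own. Sohlh2 (at 1.75 to 1.87) and Nobox (at -1.02 to -0.79) are filled in all 3 comparisons, Lhx8 and Ddx4 only between the full het groups.

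Genes known as targets of these factors did not pass in either KO comparison, with 0 of 16 in each line (2 and 3 genes at an unadjusted p under 0.05, and 1 gene in each by DESeq2 and 0 by limma-voom). Of all genes 2.41% and 1.62% passed in the Padi6 and Tle6 lines, and 18.6% and 19.0% were at an unadjusted p under 0.05. With shares this low, 0 of 16 does not set the targets apart from all genes. All 11 oocyte markers given above are among these 16 genes, so the marker sums and this list are not separate results. Gdf9, the oocyte growth factor gene that NOBOX is known to drive, was at 4356 CPM in Padi6 het and 4017 CPM in Padi6 KO, and at 3790 and 3883 CPM in the Tle6 line. Median log2 fold changes of the list were -0.09 and 0.05 in the Padi6 and Tle6 lines. Between the het groups 9 of 16 targets passed, 4 higher and 5 lower in the Tle6 line, where 28.5% of all genes passed (15.9% higher, 12.7% lower). Without library B 5 of 16 passed, beside 17.5% of all genes. Npm2, a nucleoplasmin gene (log2 fold change -1.23, adjusted p = 0.000115), and Pou5f1, the OCT4 gene (-1.41, adjusted p = 0.00256), were lower there. Gdf9 was not called in that comparison (-0.18, adjusted p = 0.488, and 0.07 without library B). Jag1, a Notch ligand gene (1.02, adjusted p = 0.00231), and Rspo2, a Wnt signalling gene (0.53, adjusted p = 0.0105), were higher. Without library B, Rspo2 no longer passed (0.43, adjusted p = 0.0532). Jag1 was also the 1 target whose KO response differed between the lines (-1.10, adjusted p = 0.0348), and this was lost without library B (-0.70, adjusted p = 0.173). Of all genes 4.32% passed that test of the difference.

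Of 20 other oocyte transcription factor genes, 15 and 16 could be tested in the Padi6 and Tle6 lines. In the Padi6 line none passed (1 at an unadjusted p under 0.05, 1 by DESeq2, 0 by limma-voom). In the Tle6 line Gtf2a1l, a germ cell paralog of the TFIIA large subunit gene, rose from 66.42 ± 4.269 (SD, n = 2) to 130.2 ± 18.40 CPM (SD, n = 4), with a log2 fold change of 1.01 ± 0.20 (SE, adjusted p = 0.0438). It was 0.98 (adjusted p = 0.0957) without library B of Tle6 het replicate 2, and also missed the threshold with the replicate block (0.89, adjusted p = 0.241), without library A, without either het replicate and without KO replicates 2, 3 or 4. A list of TFIID subunit genes and paralogs had 0 of 18 tested genes past the threshold in each KO comparison. In the Padi6 and Tle6 lines 1 and 2 were at an unadjusted p under 0.05, beside 18.6% and 19.0% of all genes, and none passed by DESeq2 or limma-voom. Subunits and paralogs were counted as 1 list, so its counts are not counts of TAF4B partners. Taf4, the paralog of Taf4b, was higher in Tle6 het than in Padi6 het (185.6 against 91.64 CPM, log2 fold change 1.04, adjusted p = 0.000564). Between the het groups of the lines 9 of the 18 genes of this list passed, 6 higher and 3 lower. Of all genes 28.5% passed there (15.9% higher, 12.7% lower). Without library B 5 of 18 passed, beside 17.5%. Among the 9 were Taf6l (-1.93, adjusted p = 0.000155) and Tbpl2, the oocyte TBP paralog gene (-0.92, adjusted p = 0.00527).

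Within the OBOX family the relatives of Obox5 share sequence, which bears on how reads were assigned. Of the distinct 50-base stretches in Obox5 transcripts, 18.1% also occurred in other genes, led by Obox7. For Obox1 and Obox2 the shares were 57.4% and 65.1%. The other 8 of the 9 genes had no shared 50-base stretch. Reads with several alignments were not counted to genes in the deposited tables, so OBOX levels are uncertain. Obox3 was the 1 of 5 tested relatives that passed in Padi6 KO, at 0.7309 ± 0.02654 CPM in het and 1.961 ± 0.5759 CPM in KO (SD, n = 3 each), a log2 fold change of 1.44 ± 0.29 (SE, adjusted p = 0.0377). That call was lost with limma-voom (adjusted p = 0.0511), with a spread shared by both lines and when any 1 replicate except KO replicate 1 was left out. Of all genes 2.41% passed in Padi6 KO. Of the 5 relatives 3 were at an unadjusted p under 0.05 there, beside 18.6% of all genes (1 called by DESeq2, 0 by limma-voom). All 5 fitted changes were positive, beside 49.2% of all genes, with a median log2 fold change of 0.32 beside -0.01. Relatives that share sequence are not separate results. In Tle6 KO 0 of 6 passed, beside 1.62% of all genes (0 at an unadjusted p under 0.05, beside 19.0%, and 0 by DESeq2 or limma-voom). Obox2 was higher in Tle6 het than in Padi6 het (2453 against 775.3 CPM, log2 fold change 1.69, adjusted p = 0.000398), and 1.09 (adjusted p = 0.0448) without library B.

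The next list held germ cell RNA-binding and germ granule genes and some other germ cell genes, among them the transcription factor gene Prdm1. None of 23 tested passed in Padi6 KO and none of 26 in Tle6 KO, beside 2.41% and 1.62% of all genes. At an unadjusted p under 0.05 there were 4 and 7, beside 18.6% and 19.0% of all genes. DESeq2 called 1 and 3, and limma-voom 0 in both. The KO response differed between the lines for Tdrd6, a tudor protein gene (2.91, adjusted p = 0.0275), and Prdm1, the BLIMP1 gene (-1.15, adjusted p = 0.0289). Of all genes 4.32% passed that test. Tdrd6 was low, at 0.3372 and 0.1661 CPM in Padi6 het and KO and 0.9293 and 3.538 CPM in Tle6 het and KO. Neither gene passed without library B (adjusted p of 0.0937 and 0.0548). Between the het groups 8 of 26 were higher in the Tle6 line and 2 were lower, beside 15.9% and 12.7% of all genes, and without library B 4 of 26 passed, beside 17.5%. Piwil1 (1.28, adjusted p = 0.000543) and Tdrd1 (1.23, adjusted p = 0.00073), which encode proteins of the piRNA pathway, were higher, but not past the threshold without library B (0.48 and 0.71). Tdrd9 was lower, at 16.08 against 107.0 CPM (-2.71, adjusted p = 3.62e-06, and -2.34 without library B). Of the mRNAs known to be bound by DAZL, Sycp3, Tpx2 and Tex19.1, none of 3 passed in either KO comparison (1 at an unadjusted p under 0.05 in each, 0 and 1 by DESeq2, 0 by limma-voom). A list of 3 genes is too short to set beside the shares of all genes. Tex19.1 was at 64.08 and 83.45 CPM in Padi6 het and KO and at 51.32 and 87.78 CPM in Tle6 het and KO.

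To see which of the 9 genes varied together, log2 CPM were correlated over the 12 biological replicates after each line's mean was subtracted, as a description in which the points share groups, depth and the unlike library pair. Nobox and Dazl were closest (Pearson r 0.86), followed by Figla with Nobox (0.74) and Figla with Dazl (0.71). Figla and Lhx8 ran opposite (-0.66), and so did Taf4b and Obox5 (-0.57). These correlations among the 9 genes include library B of Tle6 het replicate 2 and are not given without it. Among 7410 genes with a mean of 10 CPM or more, the nearest to each gene were Slco4a1 for Nobox (r 0.944), Mzt2 for Figla (0.927), Ssr3 for Lhx8 (0.952), Dedd for Sohlh2 (0.917) and Mrpl15 for Taf4b (0.956). For Obox5 they were Chn1 and Tmem128 (both 0.963), for Ddx4 Bdp1 (0.982), for Dazl Mfsd13b (0.880) and for Sohlh1 Ube2j1 (0.900). Each was picked as the highest among 7410 genes over 12 points. How high such a pick runs among unrelated genes was not tested. The picks were made with library B of Tle6 het replicate 2 included, and a value picked as highest tends to be lower in other data. Without library B the r of Mzt2 with Figla was 0.666, that of Tmem128 with Obox5 0.742 and that of Slco4a1 with Nobox 0.769. Bdp1 with Ddx4 stayed at 0.954.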

How the data were processed

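Per the labels' protocols, polyadenylated RNA of 15 oocytes per library went into a QIAseq FX single-cell kit. Bracketed sample names read WT for heterozygotes, which are called het by their genotype label. The deposited values are raw counts: reads per gene, as whole numbers. The submitters' processing notes name bcl2fastq 2.20.0.422, cutadapt 2.8, STAR 2.7.8a, HTSeq 2.0.2 and mm39. The annotation release and strand setting are not given in those sources. The deposited counts also list 92 spike-ins and reads not assigned to a gene (5.39 to 7.29% outside genes, 3.85 to 4.2% in overlapping genes, 12.09 to 14.51% with several alignments), which stayed out of library sizes and tests. GENCODE M21, on GRCm38, gave symbols (52147 identifiers matched, 1553 not) and exon lengths. In it no other gene overlaps the exons of the 9 genes.

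Counts of technical libraries were added per biological replicate. The main test was the two-sided quasi-likelihood test of edgeR 4.0.16 in R 4.3.3, with TMM scaling, robust fitting and the filterByExpr filter. Its p-values were adjusted by Benjamini-Hochberg across the whole table and called under 0.05. KO was compared with het within a line, and comparisons between lines used all 12 biological replicates. Common biological coefficients of variation were 0.203 (Padi6 line) and 0.361 (Tle6 line). The labels call the samples biological replicates without saying whether they came from separate females, so the p-values rest on the spread between these samples, which may be technical. Likeness used log2 CPM with a prior count of 2. Genes named beside the 9 were, per list and comparison, up to 5 past the threshold by smallest p and the 2 with the highest level, and the 2 most alike to each gene. Alternatives were other scalings, no filter on low counts, a minimum mean of 5 CPM, DESeq2 1.42.0, limma-voom (limma 3.58.1), a replicate block, a shared spread, other uses of technical libraries, and each replicate left out. The 9 genes and the lists were chosen with earlier results of these data known. The comparison of KO groups across lines, the Sohlh1 counting intervals and the overlap of replicates under other settings were added after seeing the data.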

Additional observations from a re-analysis of the deposited data

Results flagged for a closer look

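The change from het to KO differed between the lines, by the test of the difference itself over 12 replicates, for Sohlh1 (5.31 on the log2 scale), Tdrd6 (2.91), Jag1 (-1.10) and Prdm1 (-1.15). All 4 calls were lost without library B of Tle6 het replicate 2, and Sohlh1 rests on 3 counts in Tle6 het. The same test picked out the targeted genes Padi6 (6.02) and Tle6 (-2.33), each of which was knocked out in 1 line only.

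Obox3, a relative of Obox5, had its lowest level among the 4 Tle6 KO replicates in replicate 2, at 0.9132 CPM, far from the other 3 for their spread. Of 41 groups of 4 replicates screened, chance alone would pick out about 1 in 20.

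Spike-in transcripts, which no comparison used, had 13772 counts in Padi6 KO replicate 1, the highest of any library. The Padi6-line libraries other than het replicate 3 had 4009 counts or more, Padi6 het replicate 3 had 40, and each library of the Tle6 line had 5 to 45.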

How the results depend on the processing

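Of the values of the 9 genes under each alternative, 130 in Padi6 KO against het kept direction and side of the threshold, 143 in Tle6 KO against het, 169 in the difference between the lines and 186 between the het groups, while 1, 13, 24 and 5 changed sign, 3, 2, 1 and 8 gained a call, and 0, 0, 12 and 16 lost one. Of the values of list genes called in these comparisons, 7, 9, 35 and 490 kept direction and call, 7, 9, 33 and 58 lost the call, and 0, 0, 0 and 2 changed sign. The tallies between the het groups include the comparison of KO groups, which sets other groups against each other in the same fit and is not another processing. From it came the sign changes of Sohlh1, Taf4b, Obox5, Gtf2a1l and Jag1, and lost calls of Lhx8 and Ddx4. The cause was not tested, except that fewer samples or genes entered where replicates, libraries or low genes were left out.

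Genes called in Padi6 KO against het (440) were 1625 with no filter, 1322 with DESeq2, 859 with the replicate block, 60 with a shared spread and 61 to 258 with 1 replicate left out. Among the 9 genes 1 was called with no filter (Sohlh1), 1 with DESeq2 and 1 with the replicate block (Nobox in both). For Tle6 KO against het (329) the counts were 1447, 1732, 57 and 2061, then 120 without library B of het replicate 2, 118 with library A only of each pair, 316 without library A, and 119 to 292 with 1 replicate left out. The shared spread called 2 of the 9 genes. Total count scaling moved the share of higher calls from 36.2% to 52.3%, and the median of all genes by 0.16.

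For the difference between the lines (924) the counts were 2078 with no filter, 567 at 5 CPM or more, 2051 with DESeq2, 400 with the replicate block, 382 without library B, 369 with library A only and 406 to 1465 with 1 replicate left out. Of the 9 genes 0 were called at 5 CPM or more (Sohlh1 was not tested), with DESeq2 (Sohlh1 had no adjusted p), with the replicate block, without library B or with library A only, and 0 to 2 with 1 replicate left out. The Sohlh1 call was lost without each of the Padi6-line replicates, Tle6 het replicate 1, and Tle6 KO replicates 2 and 4 (adjusted p 0.0504 to 0.0911). Obox5 passed without Tle6 KO replicate 1 (-0.83). Calls of 3 list genes were also lost, each with the replicate block and others as follows: Jag1 with total count scaling and without Padi6 het replicates 1, 2 and 3, Padi6 KO replicates 2 and 3, Tle6 het replicate 2, and Tle6 KO replicates 2, 3 and 4; Prdm1 without Padi6 het replicates 1 and 2, any Padi6 KO replicate, Tle6 het replicate 2 and Tle6 KO replicate 2; Tdrd6 with limma-voom and without Padi6 het and KO replicates 2 and 3 and either Tle6 het replicate. Between the het groups (6107) the counts were 4047 at 5 CPM or more, 3724 without library B, 3534 with library A only, 6988 without library A and 3953 to 6283 with 1 replicate left out. Of the 9 genes, 5 in the full fit, 3 were called without library B and 3 with library A only, 2 between KO groups and 3 to 6 with 1 replicate left out.

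Signs changed as follows. In Tle6 KO against het, without library B and with library A only, Figla was -0.04 and -0.01 and Lhx8 0.02 and 0.03. Without library A, Figla was 0.53 and Lhx8 -0.46. Ddx4 there was -0.03 with RLE scaling, -0.01 with no filter, -0.03 with DESeq2, -0.04 with a shared spread and -0.19 without library A. With 1 replicate left out Ddx4 ran from -0.06 to 0.59 in the Padi6 line and -0.08 to 0.05 in the Tle6 line, and Sohlh2 from -0.10 to 0.38 in the Tle6 line. In the difference, Figla was -0.05 with the replicate block, and -0.21 and -0.18 without library B and with library A only. Nobox was -0.06 and -0.04, and Ddx4 0.02 and 0.04, under these 2 settings, while without library A Figla was 0.31 and Nobox 0.34. Sohlh2 was 0.11 with total count scaling, and Dazl 0.01 with upper quartile, 0.19 with total count scaling, 0.05 at 5 CPM or more and 0.01 with the replicate block. With 1 replicate left out the ranges were -0.07 to 0.21 for Figla, -0.31 to 0.14 for Sohlh2, -0.11 to 0.04 for Dazl and -0.61 to 0.01 for Ddx4. Between KO in place of het groups, Sohlh1 was 1.17, Taf4b 0.24, Obox5 -0.22, Gtf2a1l 0.05 and Jag1 -0.07. Between het groups Figla was 0.00 without library B and -0.52 without library A, and Dazl -0.05 with total count scaling.

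By the rule that every same-numbered pair correlate above 0.1, replicate numbers were not taken to pair the samples. Same-numbered het and KO replicates correlated at 0.26, 0.06 and 0.13 in the Padi6 line and 0.09 and 0.21 in the Tle6 line. Pairs with other numbers ran from -0.24 to -0.03, except Padi6 het replicate 2 with KO replicate 3 (0.14). In the Padi6 line most but not all replicates were closest to their own number. In the Tle6 line the values of the 2 het replicates mirror each other (0.09 with -0.09, and 0.21 with -0.21). The values of other-numbered pairs there are thus not separate from those of same-numbered pairs. Scaling to spike-ins was not run, because 5 of 15 libraries had 1000 or more spike-in counts. Where a replicate was left out of a Tle6 het group of 2, the lone sample was assumed to vary like the others. Sohlh1 had 0 to 26 counts per replicate, so its values rest on few reads.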
